A study of Mus musculus with 12 samples.

Results

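The genes described here belong to the unfolded protein response and the integrated stress response of mouse cells. The set held 38 genes of the 35080 gene names on the array, taken by name with all of their 50 probes. They fall into 4 roles: 13 chaperones and folding enzymes of the endoplasmic reticulum (ER), 7 genes of ER-associated degradation, 7 stress sensors and transcription factors, and 11 targets of the transcription factor ATF4 and the stress kinases. Of the 38 genes, 36 could be tested, since at least 1 group measured them clearly over background on each of its 3 arrays, and 35 were measured so on all 12 arrays.

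The arrays compared 4 groups of 3 samples each, with the purpose of following what Abhd5 does in macrophages and what such macrophages do to cancer cells. RAW264.7 is an established mouse macrophage-like line, and CT-26 is a mouse colon carcinoma line. The groups were RAW264.7 cells given an shRNA against Abhd5 (knockdown), RAW264.7 cells given the PLKO vector (control), CT-26 cells primed by the knockdown RAW264.7 cells (knockdown-primed) and CT-26 cells primed by RAW264.7 cells labelled as control (control-primed). The labels name 1 shRNA, do not say how the priming was done, and do not say whether replicates came from separate cultures, so the p-values measure the spread between these samples only. No group was treated with an agent that causes ER stress. Abhd5 encodes a lipid droplet protein that activates the triglyceride lipase ATGL.

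The ER folds proteins that are secreted or sit in membranes. When unfolded proteins build up there, the sensors IRE1 (gene Ern1), ATF6 (Atf6) and PERK (Eif2ak3) start the unfolded protein response: IRE1 splices the mRNA of Xbp1, ATF6 is cut to release a transcription factor, and both raise chaperones and degradation genes. PERK, like the kinases GCN2, PKR and HRI, phosphorylates the translation factor eIF2, which lowers protein synthesis in general, favours translation of ATF4 and so raises genes of amino acid supply, of one-carbon metabolism and of feedback control. In macrophages the IRE1 and XBP1 branch is also known to respond to Toll-like receptor signals, and in tumour cells the ATF4 branch is known for adaptation to scarce amino acids. Arrays of this kind measure mRNA abundance, so Xbp1 splicing, ATF6 cleavage and eIF2 phosphorylation were not seen.

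The DNA elements that ATF6, XBP1 and ATF4 are known to bind occur in promoters of several members, and short stretches that hold them are printed for examples from the chaperone, degradation and ATF4 target groups. The ER stress response element (ERSE) is CCAAT and CCACG with 9 unspecified bases between them, ERSE-II is ATTGG and CCACG with 1 such base between them, the core of the unfolded protein response element (UPRE) is TGACGTG, and the core used for the C/EBP-ATF element is TGATGNAA. All were searched on both strands in RefSeq promoter windows (build GRCm38.p6) of 250 bases before to 50 bases after each gene's start, and no match in a member overlapped another. Each stretch has 60 bases on the gene's own strand, 5′ to 3′, with the fixed bases of the element in capitals. In the Creld2 and Chac1 stretches the element lies on the opposite strand, so its reverse complement is in capitals.
Hspa5, ERSE, chr2:34772004-34772063: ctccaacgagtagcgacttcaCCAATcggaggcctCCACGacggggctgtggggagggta
Pdia6, ERSE, chr12:17266470-17266529: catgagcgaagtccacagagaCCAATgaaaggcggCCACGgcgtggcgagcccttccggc
Creld2, ERSE, chr15:88819499-88819558: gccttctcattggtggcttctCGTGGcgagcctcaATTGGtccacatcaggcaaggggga
Herpud1, ERSE-II, chr8:94386352-94386411: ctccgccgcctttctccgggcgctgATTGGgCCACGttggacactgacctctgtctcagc
Asns, C/EBP-ATF element core, chr6:7693210-7693269: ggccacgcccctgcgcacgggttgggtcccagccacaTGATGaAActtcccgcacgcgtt
Chac1, C/EBP-ATF element core, chr2:119351023-119351082: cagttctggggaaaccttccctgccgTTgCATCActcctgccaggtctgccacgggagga

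A promoter entry was at hand for 34 of the 38 genes. An exact ERSE stood in 8 of them (Hspa5, Hsp90b1, Canx, Pdia6, Dnajc3, Creld2, Syvn1 and Derl3), 6 chaperones or folding enzymes and 2 degradation genes, against 0.119% of all 32851 promoter windows. ERSE-II stood in Herpud1 and Dnajb11, against 0.0365% of all windows, and the UPRE core in Hspa5, against 2.01%. The C/EBP-ATF core stood in Chac1, Asns, Trib3, Vldlr and Herpud1, against 3.97% of all windows. These matches are strings of letters in a window and were not tested for binding.

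Levels are given as log2 of the background-subtracted signal minus the 75th percentile of the same array, so that a level of 0 is the 75th percentile and a difference of 1 is a doubling. They compare samples for 1 probe and do not rank genes against each other. Replicates correlated at 0.974 to 0.991, and 56.5 to 77.3% of the spots of an array were well above background, with the lowest shares on the control RAW264.7 arrays 1 and 2, which alone lay on slide 1. The third control RAW264.7 array shared slide 2 with the 3 knockdown arrays, and all CT-26 arrays lay on slide 3. The value with slide as a block and the value within slide 2 are therefore given beside Abhd5 and each gene named as passing the test in RAW264.7 cells. Slide 1 held control arrays only, so both fits take the change from the same slide 2 control array and are not independent checks of its size. All 12 myeloid markers were well above background on every RAW264.7 array, with a summed log2 level of 8.24 to 8.42 in knockdown and 8.17 to 8.36 in control cells. In CT-26 cells that sum was 5.84 to 6.23 (knockdown-primed) and 5.79 to 5.93 (control-primed), with 8 and 9 of the 12 markers on all arrays and 4 and 2 on none. The macrophage markers Adgre1 and Spi1 were on none in either group, while Tyrobp was on every control-primed and on no knockdown-primed array. Of 12 epithelial markers, 8 were found on all arrays of each CT-26 group (summed log2 level 4.78 to 5.14 in knockdown-primed and 5.09 to 5.25 in control-primed cells, against 0.28 to 0.38 in knockdown and 0.64 to 1.14 in control RAW264.7 cells), while 9 of the 12 were above background on all knockdown and 4 on all control RAW264.7 arrays, and the defining markers Cdh1 and Cdx2 were well above background on no array. What part RAW264.7 RNA had in the CT-26 samples was not tested. Fewer cells of a type and less RNA per cell cannot be told apart on such arrays.

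**Figure D1:**
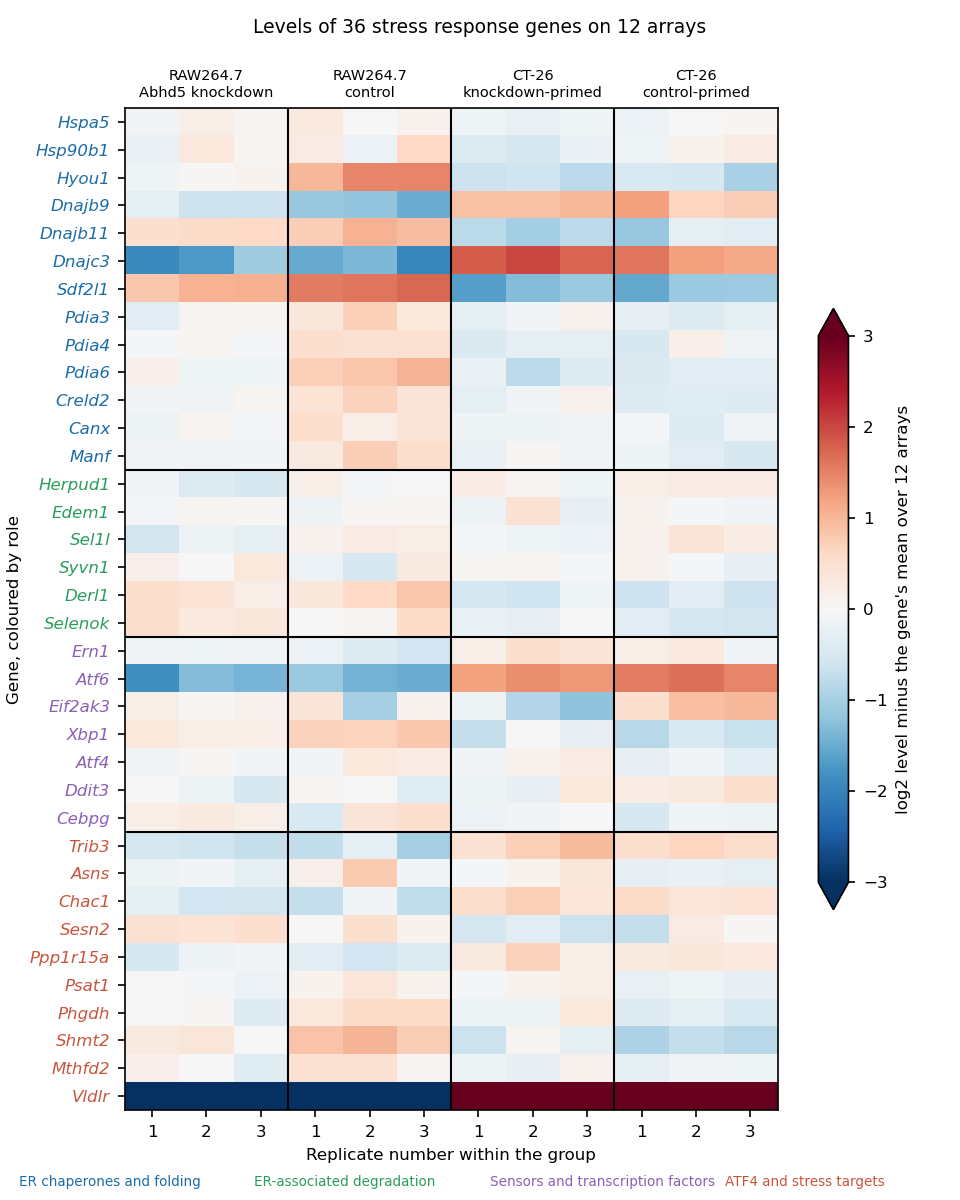
Levels of the 36 tested genes on the 12 arrays, each shown as its log2 level minus its own mean over the arrays (red above, blue below, scale from -3 to 3), with the 4 groups side by side and the genes grouped by role. The largest contrasts are between the cell lines: Vldlr, Dnajc3 and Atf6 were higher in CT-26 cells, Sdf2l1 and Hyou1 higher in RAW264.7 cells, and within a cell line Hyou1 in RAW264.7 and Eif2ak3 in CT-26 cells stand out.

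The targeted gene, Abhd5, was read by a probe at chr9:122288857-122288916 (mm9). Its log2 level was 0.25, 0.23 and 0.39 in knockdown RAW264.7 cells, against 1.38, 1.93 and 1.52 in control cells, a difference of -1.32 ± 0.20 (standard error) with an adjusted p of 0.00346. The fit with slide as a block gave -1.23 (adjusted p = 0.0556), and within slide 2 it was -1.23 (adjusted p = 0.0169). Of the other 2 Abhd5 probes, one changed by -1.30 (adjusted p = 0.0157) and one by -0.78 without passing the test (adjusted p = 0.0759).

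The first comparison asks which stress response genes differ in macrophages after loss of Abhd5. In knockdown RAW264.7 cells 4 ER chaperone genes fell (Hyou1, Pdia6, Sdf2l1 and Manf), 1 rose (Dnajb9), and the central chaperone gene Hspa5 (BiP) and the stress transcription factor genes Atf4, Ddit3 and Xbp1 did not pass the test. Among the ATF4 targets 1 of 10 tested genes fell (Shmt2) and none rose, with limma giving 0 higher and 2 lower at an unadjusted p under 0.05. In all, 1 member rose and 5 fell of the 36 tested, at an adjusted p under 0.05 over all 25461 genes tested. This is 16.7% of the members (2.78% higher and 13.9% lower), against 22.8% of all genes tested (7.94% higher and 14.8% lower). The median log2 change of the members was -0.24, against -0.30 for all genes tested, so most small negative values here lie close to the shift of the whole array. Under median centring that shift of all genes was -0.08, under quantile normalization -0.10. Of the 9 alternatives in processing and design, Hyou1 kept its call in 9, Pdia6 in 7 and Dnajb9 in 6. Sdf2l1 kept it in 3, Shmt2 in 2 and Manf in 1. With median centring Hyou1 was the 1 member called lower.

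Hyou1, a large HSP70-related ER chaperone that helps BiP exchange its nucleotide, changed most among the members. Its log2 level was -2.84, -2.67 and -2.60 in knockdown cells, against -1.72, -1.26 and -1.25 in control cells. All knockdown arrays lay below all control arrays. The log2 change was -1.29 ± 0.20, or 2.45-fold lower, with an adjusted p of 0.00385. With slide as a block and within slide 2 the change was -1.45, in both against the slide 2 control array alone. The call was kept under all 9 alternatives, which include both of these fits, and without any one array.

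Pdia6, a protein disulfide isomerase that also acts on IRE1, had log2 levels of 3.50, 3.22 and 3.24 in knockdown cells, against 4.08, 4.19 and 4.38 in control cells. The groups did not overlap, and the log2 change was -0.90 ± 0.18, or 1.86-fold lower (adjusted p = 0.0136). The adjusted p was 0.0624 with slide as a block and 0.0372 within slide 2. A second Pdia6 probe changed by -0.38 (adjusted p = 0.232), so the 2 probes differ in their call. Without knockdown array 2 the adjusted p was 0.0692, and without knockdown array 3 it was 0.0729.

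Sdf2l1 encodes an ER protein that works with BiP and its J-domain partner Dnajb11. It had log2 levels of 4.15, 4.38 and 4.41 in knockdown cells, against 4.90, 4.95 and 5.08 in control cells, and every knockdown array was below every control array. The change was -0.66 ± 0.17, or 1.58-fold lower (adjusted p = 0.0322). The adjusted p was 0.163 with slide as a block and 0.0758 within slide 2, and it lay above 0.05 when any array other than control array 2 was left out (0.0514 to 0.106).

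Manf, a small secreted protein that is kept in the ER and stabilizes BiP, had log2 levels of 4.50, 4.52 and 4.52 in knockdown cells, against 4.89, 5.34 and 5.13 in control cells. The knockdown arrays lay close together and below the control arrays. The change was -0.61 ± 0.18, or 1.53-fold lower (adjusted p = 0.0457). With slide as a block the adjusted p was 0.277, within slide 2 it was 0.0839, and leaving out any one array gave 0.0525 to 0.148.

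Dnajb9 is a J-domain partner of BiP and a known target of XBP1, and it was the 1 member that rose. It had log2 levels of -1.55, -1.90 and -1.86 in knockdown cells, against -2.37, -2.42 and -2.73 in control cells. The groups did not overlap, and the change was 0.74 ± 0.19, or 1.67-fold higher (adjusted p = 0.0317). A second probe had -0.65, -0.60 and -0.11 in knockdown cells, against -1.10, -1.36 and -0.88 in control cells, a change of 0.66 (adjusted p = 0.0631). The first probe, with slide as a block, changed by 0.96 (adjusted p = 0.094), within slide 2 its adjusted p was 0.0563, and without any one array other than control array 2 it was 0.0529 to 0.101.

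The other 8 chaperones did not pass the test. Hspa5 had log2 levels of 3.6, 3.88 and 3.79 in knockdown cells, against 4.0, 3.72 and 3.84 in control cells, which overlap, and its change was -0.10 with a 95% interval of -0.51 to 0.31 (adjusted p = 0.677). Hsp90b1, the ER member of the HSP90 family, also overlapped, with 2.95, 3.50 and 3.26 in knockdown cells, against 3.42, 3.0 and 3.78 in control cells (-0.17, interval -0.73 to 0.40). Both promoters carried an ERSE. Creld2 (-0.53, adjusted p = 0.0618), Pdia4 (-0.46, 0.0675), Pdia3 (-0.51, 0.09), Canx (-0.42, 0.103) and Dnajb11 (-0.36, 0.141) had lower values on all knockdown arrays than on all control arrays without passing the test. How many of all genes separated in this way was not counted, here or for the genes below. The median change of all genes tested was itself -0.30, so such separation is not shown to be particular to these members. Dnajc3, an inhibitor of PERK and co-chaperone of BiP, changed by 0.02 (0.95).

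Over the 13 chaperones the median log2 change was -0.46, or -0.16 relative to the median of all genes. The list's median was below 0 under every scaling run, at -0.24 with median centring, -0.13 with quantile normalization, -0.46 with normexp and -0.44 with slide as a block. Relative to all genes it was -0.03 under quantile normalization.

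**Figure D2:**
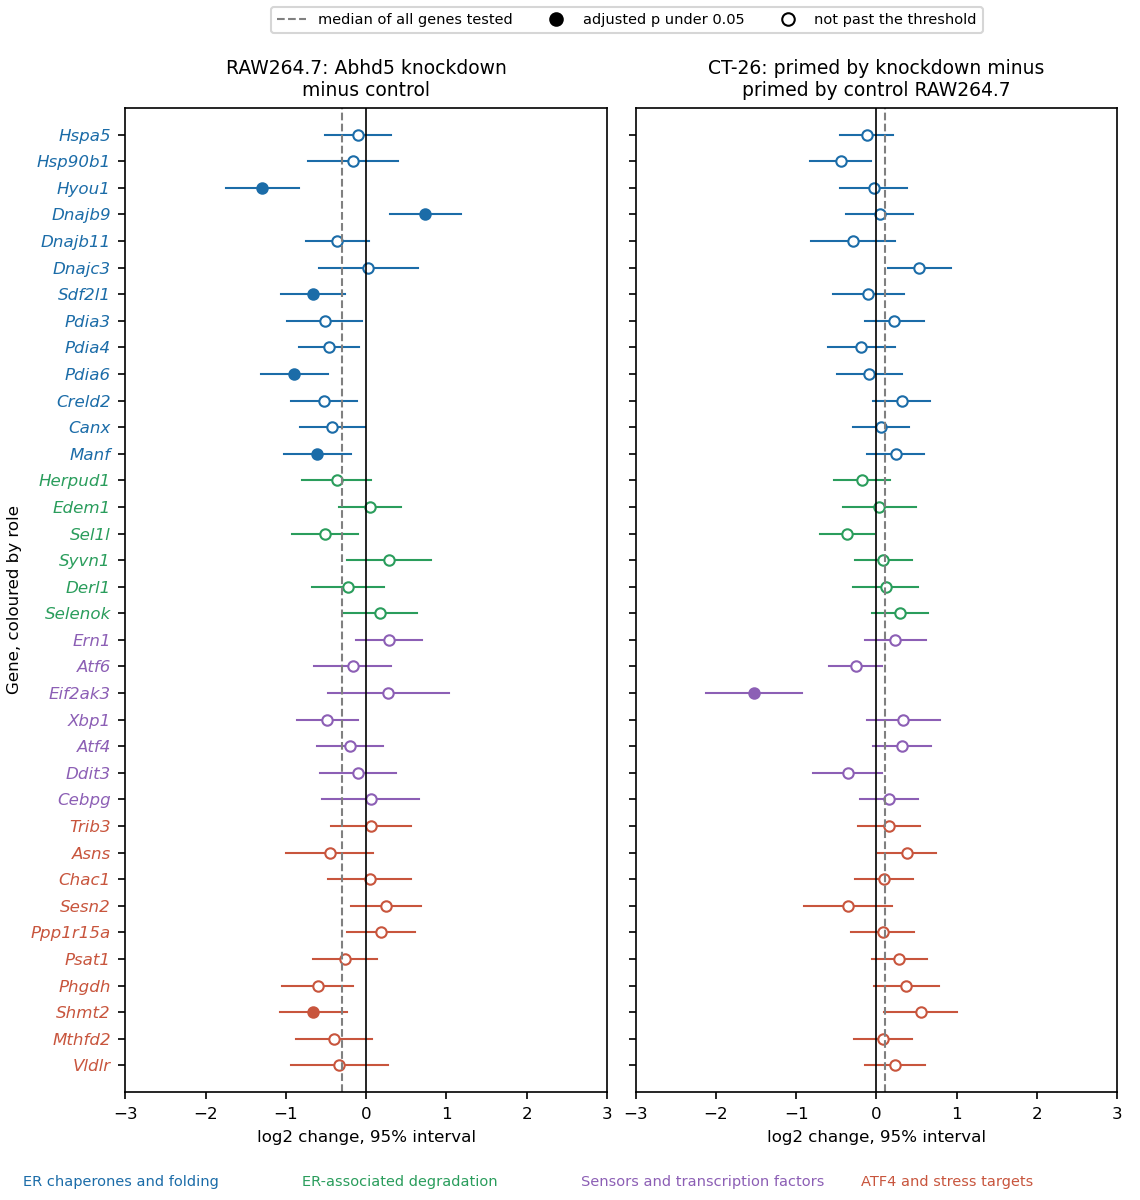
Log2 change of each of the 36 tested genes with its 95% interval, in RAW264.7 cells (knockdown minus control, left) and in CT-26 cells (knockdown-primed minus control-primed, right). Filled points passed an adjusted p of 0.05 and open points did not, the dashed line is the median of all genes tested (-0.30 and 0.11), and the chaperones with filled points in RAW264.7 cells have no filled point in CT-26 cells, where Eif2ak3 at -1.53 is the only one.

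None of the 6 tested genes of ER-associated degradation passed the test (limma, 0 higher and 1 lower at an unadjusted p under 0.05). Of all genes tested 22.8% did. Sel1l, the adaptor of the ubiquitin ligase that removes misfolded ER proteins, had log2 levels of -0.43, -0.03 and -0.14 in knockdown cells, against 0.25, 0.36 and 0.32 in control cells. It was lower on all knockdown arrays, and its change of -0.51 had an adjusted p of 0.0682. Syvn1, the ligase itself, had 1.16, 1.02 and 1.34 in knockdown cells, against 0.84, 0.52 and 1.29 in control cells (0.29, adjusted p = 0.346). Herpud1, which joins that complex and carries the ERSE-II printed above, had 2.57, 2.26 and 2.18 in knockdown cells, against 2.84, 2.60 and 2.67 in control cells (-0.37, adjusted p = 0.156). Edem1, which passes misfolded glycoproteins on to degradation, changed by 0.05, Derl1 by -0.23 and Selenok, a selenoprotein partner of the derlins, by 0.17. The median of the 6 was -0.09, and it was above 0 under median centring (0.13) and quantile normalization (0.07).

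No sensor or transcription factor passed the test in RAW264.7 cells (0 of 7 by limma, 0 higher and 1 lower at an unadjusted p under 0.05). This compares with 22.8% of all genes tested. Xbp1 had log2 levels of 3.66, 3.54 and 3.55 in knockdown cells, against 4.03, 4.01 and 4.15 in control cells. The groups did not overlap, but the change of -0.48 had an adjusted p of 0.0631. Atf4 had 4.16, 4.27 and 4.16 in knockdown cells, against 4.16, 4.56 and 4.46 in control cells (-0.20, interval -0.61 to 0.22). Ddit3, which encodes the pro-apoptotic factor CHOP, had 3.35, 3.19 and 2.87 in knockdown cells, against 3.39, 3.34 and 2.97 in control cells (-0.10, interval -0.57 to 0.37). These overlap throughout.

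Ern1 had log2 levels of -1.41, -1.46 and -1.44 in knockdown cells, against -1.51, -1.74 and -1.91 in control cells (0.28, adjusted p = 0.244). Eif2ak3 had 0.29, 0.18 and 0.26 in knockdown cells, against 0.50, -0.87 and 0.26 in control cells, so its spread came from control array 2 (0.28, adjusted p = 0.529). Atf6 changed by -0.17 and Cebpg, a dimer partner of ATF4, by 0.05. The median of the 7 genes was -0.10, and it was above 0 under median centring (0.12) and quantile normalization (0.17).

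Shmt2, the mitochondrial enzyme that turns serine into glycine and one-carbon units, had log2 levels of 4.57, 4.67 and 4.31 in knockdown cells, against 5.15, 5.32 and 5.04 in control cells. The groups did not overlap, and the change was -0.66 ± 0.185, or 1.58-fold lower (adjusted p = 0.0388). With slide as a block it was -0.53 (adjusted p = 0.336), within slide 2 the adjusted p was 0.156, and without any one array other than control array 3 it was 0.0503 to 0.161. Phgdh, the first enzyme of serine synthesis, had 4.86, 4.90 and 4.48 in knockdown cells, against 5.19, 5.42 and 5.44 in control cells, also apart (-0.60, adjusted p = 0.0526).

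The feedback and stress genes of the same list gave small values of both signs. Trib3, a pseudokinase that restrains ATF4, had 3.17, 3.09 and 3.0 in knockdown cells, against 2.96, 3.42 and 2.70 in control cells (0.06, interval -0.44 to 0.56). Chac1, which breaks down glutathione, changed by 0.05 (interval -0.47 to 0.56), Ppp1r15a, the stress-induced partner of the phosphatase that restores eIF2, by 0.19, and Sesn2, a leucine-binding inhibitor of mTORC1, by 0.25. Asns, the asparagine synthetase gene whose element is printed above, had 4.72, 4.79 and 4.58 in knockdown cells, against 5.03, 5.64 and 4.79 in control cells (-0.46, adjusted p = 0.169). Psat1 changed by -0.26 and Mthfd2 by -0.40. The median of the 10 tested genes was -0.30, the same as that of all genes tested, and it was 0.03 under quantile normalization.

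**Figure D3:**
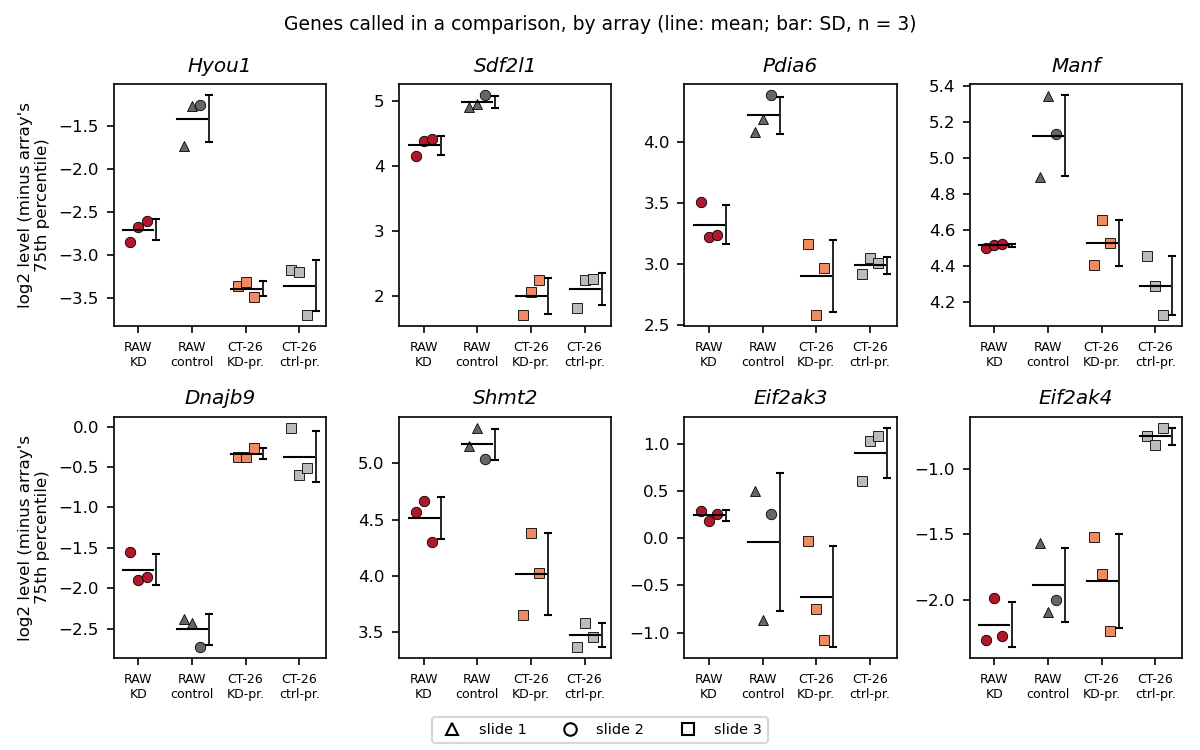
Log2 level on every array for the 7 members that passed the test in RAW264.7 or CT-26 cells and for Eif2ak4 (GCN2), with the group mean as a line, the SD as a bar (n = 3) and the slide as the marker. Hyou1, Sdf2l1, Pdia6, Manf and Shmt2 lie lower and Dnajb9 higher on the knockdown RAW264.7 arrays, and Eif2ak3 and Eif2ak4 lie lower on the knockdown-primed CT-26 arrays.

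Other genes of the pathways gave calls in both directions in RAW264.7 cells. Of 28 further ER folding and degradation genes tested, 3 rose and 3 fell, against 7.94% and 14.8% of all genes, and within slide 2 the calls were those of Ero1a and Hspa13. With slide as a block limma called 0 (2 higher and 1 lower at an unadjusted p under 0.05). Ero1a, the oxidase that drives disulfide formation, had log2 levels of 2.37, 2.85 and 2.74 in knockdown cells, against 0.81, 1.27 and 1.43 in control cells (1.49, adjusted p = 0.00377, 0.0708 with slide as a block and 0.0404 within slide 2). Hspa13, an HSP70-related protein of the microsomes, had -2.32, -2.08 and -2.32 in knockdown cells, against -4.31, -3.82 and -3.48 in control cells (1.63, adjusted p = 0.00288, 0.0525 with slide as a block and 0.0212 within slide 2). The 2 named genes that fell were Txndc5, a disulfide isomerase (-0.62, adjusted p = 0.0386), and Ppib, a prolyl isomerase (-0.85, adjusted p = 0.0403). For Txndc5 the adjusted p was 0.297 with slide as a block and 0.13 within slide 2, and for Ppib it was 0.38 and 0.101.

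Of 24 further ATF4 and integrated stress response targets tested, 5 rose and 2 fell, against 7.94% and 14.8% of all genes, and with slide as a block or within slide 2 the count was 3 higher and 1 lower. Slc7a11, the cystine importer, was well above background on every knockdown array and on no control array, and was at least 6.08-fold higher in knockdown cells (adjusted p = 1.69e-05, 0.000303 with slide as a block and 0.00201 within slide 2). Cth, which makes cysteine from cystathionine, had log2 levels of 3.17, 2.82 and 2.26 in knockdown cells, against 0.89, 1.07 and 0.53 in control cells (1.92 ± 0.27, adjusted p = 0.00227, 0.0106 with slide as a block and 0.0238 within slide 2). Cbs, the enzyme before it in the same pathway, went the other way, with -1.27, -1.37 and -1.23 in knockdown cells, against -0.37, -0.32 and -0.17 in control cells (-1.0 ± 0.17, adjusted p = 0.0058, 0.0402 with slide as a block and 0.0215 within slide 2). Gdf15, a secreted stress cytokine, had -0.22, -0.31 and -0.58 in knockdown cells, against -2.45, -1.86 and -2.25 in control cells (1.82 ± 0.21, adjusted p = 0.000913, 0.0118 with slide as a block and 0.00766 within slide 2). With normexp background correction Slc7a11 changed by 1.98 on the log2 scale, which is less than its bound of 6.08-fold. The median of these 24 genes was -0.19.

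The 13 genes of tRNA charging and export tested (aminoacyl-tRNA synthetases and the exportin gene Xpot), a further group of ATF4 targets, had a median of -0.34. They held no call (limma, 1 higher and 3 lower at an unadjusted p under 0.05), against 22.8% of all genes tested. Of 8 genes of eIF2, its kinases and its phosphatase partners, 1 rose, against 7.94% of all genes tested. This was Ppp1r15b, the constitutive partner of the eIF2 phosphatase, with 1.47, 1.45 and 1.48 in knockdown cells, against 0.11, 0.42 and 1.21 in control cells (0.89, adjusted p = 0.0494). Its 2 lowest values were the slide 1 control arrays, and in the fit that blocks on slide it changed by 0.26 (adjusted p = 0.569, and 0.307 within slide 2).

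The second comparison asks whether CT-26 cells primed by knockdown macrophages differ from those primed by control macrophages. Of the 36 members tested 1 fell, Eif2ak3, and none rose (limma, 3 higher and 3 lower at an unadjusted p under 0.05). This compares with 6.36% of the 24997 genes tested, 3.15% higher and 3.21% lower. The member median was 0.08 (-0.05 under quantile normalization), against 0.11 for all genes tested.

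Eif2ak3, the gene of the sensor kinase PERK, had log2 levels of -0.03, -0.75 and -1.08 in knockdown-primed cells, against 0.60, 1.03 and 1.09 in control-primed cells. The groups did not overlap, and the change was -1.53 ± 0.27, or 2.88-fold lower (adjusted p = 0.02). The adjusted p was 0.0699 without control-primed array 2, 0.0972 without control-primed array 3, 0.0511 without knockdown-primed array 2 and 0.068 without knockdown-primed array 3, and 0.0878 with no filter on dim probes, while the change stayed between -1.82 and -1.30. The knockdown-primed array with the highest level had 67.0% of its spots well above background and the one with the lowest level had 59.3%, and the part of this in the result was not tested.

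Eif2ak4, the gene of the amino acid sensor kinase GCN2, also fell, as the only one of 8 eIF2-related genes, against 3.21% of all genes tested. It had log2 levels of -1.52, -1.80 and -2.24 in knockdown-primed cells, against -0.75, -0.82 and -0.69 in control-primed cells (-1.11 ± 0.20, adjusted p = 0.0208). A second Eif2ak4 probe had -3.51, -3.02 and -3.18 in knockdown-primed cells, against -3.03, -3.17 and -3.08 in control-primed cells, which overlap. The call was lost without control-primed array 2 (adjusted p = 0.0673), control-primed array 3 (0.102) or knockdown-primed array 3 (0.0551), and with no filter on dim probes (0.0878). The levels of the probe used fell over the 3 knockdown-primed arrays as did their spots well above background (67.0, 63.8 and 59.3%). The part of this in the result was not tested.

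No chaperone passed the test in CT-26 cells (0 of 13 by limma, 1 higher and 1 lower at an unadjusted p under 0.05), against 6.36% of all genes tested. Under quantile normalization 1 of 13, Hsp90b1, was called lower. Hspa5 had log2 levels of 3.57, 3.48 and 3.59 in knockdown-primed cells, against 3.53, 3.72 and 3.75 in control-primed cells (-0.12, interval -0.46 to 0.21). Hyou1 had -3.36, -3.31 and -3.49 in knockdown-primed cells, against -3.17, -3.19 and -3.70 in control-primed cells (-0.04, interval -0.45 to 0.38). Both overlap. Dnajc3 had 0.03, 0.22 and -0.04 in knockdown-primed cells, against -0.18, -0.56 and -0.65 in control-primed cells, without overlap (0.53, adjusted p = 0.0907). Hsp90b1 had 2.75, 2.67 and 2.98 in knockdown-primed cells, against 3.04, 3.29 and 3.41 in control-primed cells, lower on every array (-0.45, adjusted p = 0.118).

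The member ATF4 targets held no call in CT-26 cells either (0 of 10 by limma, 2 higher and 0 lower at an unadjusted p under 0.05). Again 6.36% of all genes tested were called. Atf4 itself had 4.17, 4.36 and 4.49 in knockdown-primed cells, against 3.99, 4.15 and 3.93 in control-primed cells (0.32, adjusted p = 0.208). Shmt2 had 3.65, 4.38 and 4.03 in knockdown-primed cells, against 3.37, 3.59 and 3.46 in control-primed cells (0.55, adjusted p = 0.113), and Asns had 4.80, 4.98 and 5.21 in knockdown-primed cells, against 4.63, 4.67 and 4.57 in control-primed cells (0.37, adjusted p = 0.156). In each of these 3 genes the knockdown-primed arrays were all above the control-primed arrays, and how many of all genes did so was not counted. Ddit3 had 3.19, 3.1 and 3.66 in knockdown-primed cells, against 3.56, 3.62 and 3.85 in control-primed cells (-0.36, adjusted p = 0.229). The median of the 10 targets was 0.19 (-0.045 under quantile normalization), and that of the 6 degradation genes, none of which changed (0 higher and 1 lower at an unadjusted p under 0.05), was 0.06 (-0.05 under quantile normalization and -0.02 with normexp).

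Among the further ATF4 targets 3 of 24 rose in CT-26 cells, against 3.15% of all genes, and none fell (limma, 8 higher and 0 lower at an unadjusted p under 0.05). With the replicate block the count was 1. They were Cth (0.92, adjusted p = 0.0147), Stc2, a secreted glycoprotein hormone (0.68, 0.0404), and Slc1a5, a glutamine importer (0.74, 0.0493). Cth had log2 levels of -5.28, -5.16 and -5.11 in knockdown-primed cells, against -6.15, -6.08 and -6.07 in control-primed cells, without overlap. These levels lie near the lowest signals that count as well above background. For genes well above background on no array, the level used as a bound was -6.73 in control-primed cells (Adgre1) and -5.85 in knockdown-primed cells (Atf3). What part this had in the Cth change was not tested. Of 29 further ER genes 1 rose, Selenos, which encodes a selenoprotein of the degradation complex (0.67, adjusted p = 0.0401), and of the 13 tRNA charging and export genes none changed (3 higher and 1 lower at an unadjusted p under 0.05). Leaving out 1 array removed the call in 5 of 6 cases for Selenos and for Slc1a5, in 4 for Stc2 and in 2 for Cth. Of the 7 other processing alternatives Slc1a5 kept its call in 2, Selenos in 3, Stc2 in 4 and Cth in 6.

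Whether the change in RAW264.7 cells differed from that in CT-26 cells was tested as an interaction over all 12 arrays. It passed for 10 of 36 members, 1 in the positive and 9 in the negative direction, which is 27.8% of the members, against 31.4% of all 27074 genes tested (7.44% positive and 23.9% negative). Hyou1 had the lowest adjusted p: its change was -1.29 in RAW264.7 and -0.04 in CT-26 cells, a difference of -1.26 ± 0.27 (adjusted p = 0.00745, and 0.0238 with the RAW264.7 slide as a covariate). Shmt2 changed by -0.66 in RAW264.7 and by 0.55 in CT-26 cells, a difference of -1.21 ± 0.27 (adjusted p = 0.00944). Eif2ak3 gave the 1 positive difference, 1.81 ± 0.48 (adjusted p = 0.0174, and 0.116 with the slide covariate). The 9 negative differences were those of 5 chaperones, Xbp1 and 3 ATF4 targets, and with the slide covariate Hyou1 was the 1 member still called. The median difference of all genes was -0.39, so a member at -0.39 moved like the typical gene.

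**Figure D4:**
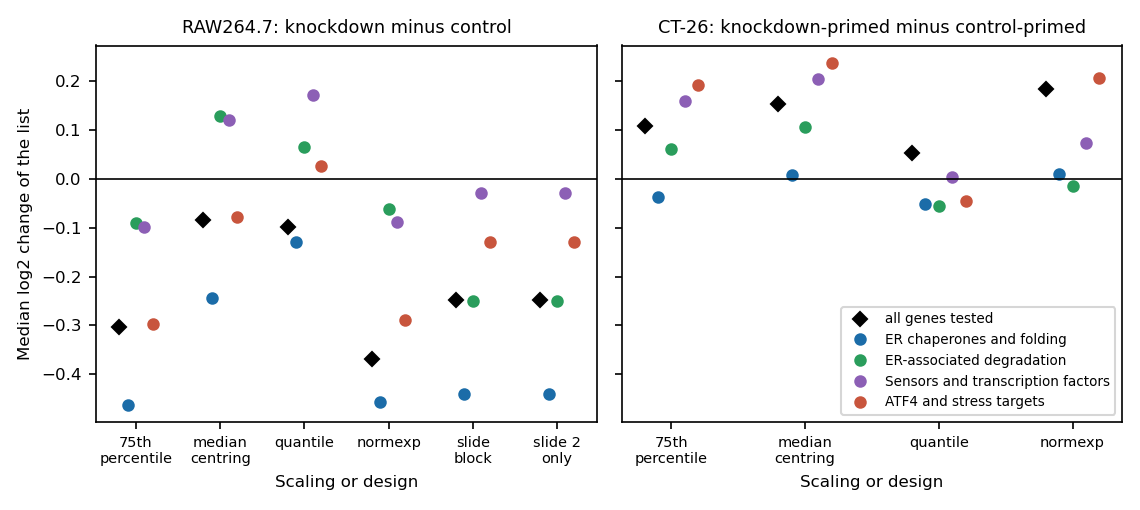
Median log2 change of all genes tested and of each role group under the 75th percentile scaling and under the alternatives, in RAW264.7 cells (left) and CT-26 cells (right). In RAW264.7 cells the median of all genes moves between -0.37 and -0.08 with the scaling, the chaperone median stays below 0, and the medians of the other 3 groups lie on either side of 0.

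Levels in the cell lines were compared in their controls, control RAW264.7 minus control-primed CT-26 cells. Cell line, priming and slide cannot be told apart in this contrast. RAW264.7 cells were higher for 9 of the 13 chaperones, 2 degradation genes (Derl1 and Selenok), Xbp1 and 3 ATF4 targets (Shmt2, Phgdh and Mthfd2). They were lower for 2 chaperones, the 3 sensor genes Atf6, Eif2ak3 and Ern1 and 4 ATF4 targets. Under quantile normalization 4 chaperones were higher and 4 lower, with Pdia4, Hspa5 and Hsp90b1 turning direction, and 1 ATF4 target was higher and 5 lower. With the replicate block 7 chaperones were higher and 2 lower. Of 7 alternatives Ern1 kept its call in 1 and Eif2ak3 in 4, and of the 6 fits without 1 array they kept it in 1 and 2. Of the 36 members 15 were higher and 9 lower in RAW264.7 cells, 66.7% in all, against 67.6% of the 25588 genes tested (42.2% higher and 25.3% lower). Under quantile normalization the split was 6 higher and 14 lower, and the median of all genes moved from 0.40 to 0.16.

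Sdf2l1 had log2 levels of 4.90, 4.95 and 5.08 in control RAW264.7 cells, against 1.82, 2.24 and 2.25 in control-primed CT-26 cells, a 7.31-fold higher level (adjusted p = 6.15e-06). Hyou1 had -1.72, -1.26 and -1.25 in control RAW264.7 cells, against -3.17, -3.19 and -3.70 in control-primed CT-26 cells (3.84-fold, adjusted p = 0.000164). Shmt2 was 3.25-fold and Dnajb11, the J-domain partner of BiP that works with Sdf2l1, 2.8-fold higher in RAW264.7 cells. Xbp1 had 4.03, 4.01 and 4.15 in control RAW264.7 cells, against 2.51, 2.88 and 2.67 in control-primed CT-26 cells (2.6-fold, adjusted p = 0.000263). Hspa5 differed by 0.19 (interval -0.21 to 0.58) and Atf4 by 0.37 (adjusted p = 0.102). Under quantile normalization both turned direction, to -0.54 and -0.37. The level of Hyou1 in knockdown RAW264.7 cells, -2.84 to -2.60, thus lay between those of the control RAW264.7 and the CT-26 arrays.

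Vldlr, a lipoprotein receptor gene, differed most. It had log2 levels of -4.96, -4.43 and -4.93 in control RAW264.7 cells, where 2 of 3 arrays were well above background, against 4.01, 3.86 and 3.86 in control-primed CT-26 cells, a 411-fold lower level in RAW264.7 cells. Atf6 had -2.16, -2.46 and -2.52 in control RAW264.7 cells, against 0.49, 0.62 and 0.43 in control-primed CT-26 cells (7.44-fold lower in RAW264.7 cells). Dnajc3 had -3.29, -3.14 and -3.74 in control RAW264.7 cells, against -0.18, -0.56 and -0.65 in control-primed CT-26 cells (7.59-fold lower). Trib3 differed by -1.21 and Chac1 by -0.96, both lower in RAW264.7 cells and both without overlap.

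Probes of 1 gene did not always give the same order of the cell lines. For Dnajb9 the probe used was 4.39-fold lower in RAW264.7 cells and passed the test, while the second probe differed by 1.19 in the opposite direction and passed it too, so no order of the lines can be given for this gene. The second probes of Pdia6 and Derl1 differed by 0.01 and 0.14, against 1.23 and 1.12 for the probes used, and that of Selenok by -0.48, against 0.67. That of Psat1 differed by 0.93 (limma adjusted p = 0.01), against 0.40. The other Ern1 probes gave -3.21 (adjusted p = 0.00169), -2.52 (0.00396) and -0.50 (0.331), against -0.50 for the probe used. Those at -3.21 and -2.52 were well above background on all arrays of neither RAW264.7 group. The Vldlr probes gave -8.68 and -9.34.

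**Figure D5:**
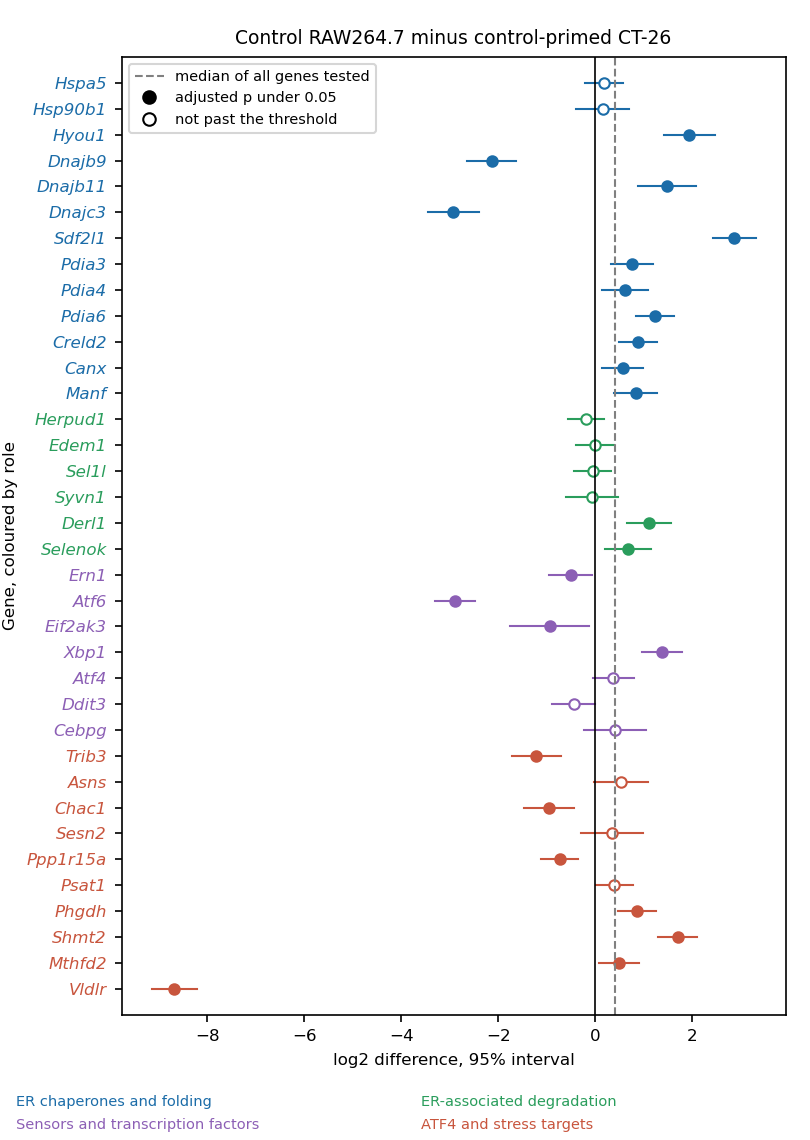
Log2 difference of each of the 36 tested genes between control RAW264.7 and control-primed CT-26 cells, with its 95% interval, by role. Filled points passed an adjusted p of 0.05, and the dashed line is the median of all genes tested (0.40): 9 chaperones lie right of 0 with filled points and 2, Dnajc3 and Dnajb9, left of it, although a second Dnajb9 probe differed by 1.19 and quantile normalization left 4 chaperones higher and 4 lower.

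Derl3 and Ddit4l were not tested. Derl3, a derlin of the degradation machinery, had log2 levels between -7.14 and -5.47 and was well above background on 1 knockdown and 1 control RAW264.7 array, on no knockdown-primed and on 1 control-primed CT-26 array. Ddit4l, an inhibitor of mTORC1 signalling, was well above background on no array.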

How the data were processed

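Labelled RNA of 12 samples was hybridised to 1-colour Agilent mouse arrays. The authors deposited scanner files with spot intensities, background-subtracted and detrended within each array by Agilent Feature Extraction 10.7.3.1, per the file headers. A deposited value table holds log2 values minus the array's 75th percentile for the 6 RAW264.7 arrays and linear intensities of unstated scaling for the 6 CT-26 arrays. It was used as an alternative after the linear columns were log2 transformed and all were centred on the 75th percentile, and 5 CT-26 columns matched the scanner file of another replicate of their group.

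The processed intensities were scaled to each array's 75th percentile and log2 transformed without the 3671 control spots and the 172 to 272 spots per array that the scanner software called outliers; no saturated spot was found. Spots of a probe were averaged, and a gene was represented by its brightest probe among those detected over background on all 3 arrays of at least 1 group. Probes took current names by accession (26762 of 55681) or symbol (3819), and 25100 kept the design's name. Groups were compared with limma 3.58.1 (R 4.3.3) within each cell line, and over all 12 arrays for the interaction, with Benjamini-Hochberg adjustment over all genes and a threshold of 0.05. Standard errors and intervals are those of the fit. The within-slide fit has 1 control array, assumed to vary like the knockdown arrays. With slide as a block the RAW264.7 change rests on that same array, and the slide 1 arrays add only to the estimate of spread. The same holds for the RAW264.7 change in the interaction with slide as a covariate. A fold against a group not well above background on any array is a bound, set by the lowest signal well above background on each array. The precision is limited by the 3 arrays per group. Scripts were tested on simulated data. Alternatives were normexp background correction (offset 50), median centring, quantile normalization, no filter, every probe on its own, the deposited value table, a replicate block, slide, and leaving out each array.

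The members and the other gene lists were chosen with earlier results of these data known. All members are described, with full statistics for those past the threshold, and at most 4 genes are named per further list and comparison, by smallest p.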

Additional observations from a re-analysis of the deposited data

Results flagged for a closer look

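For 10 members the change in RAW264.7 cells differed from the change in CT-26 cells by a test of the difference itself (limma interaction over all 12 arrays, adjusted p under 0.05). Values are the RAW264.7 change minus the CT-26 change on the log2 scale, and their median over all genes was -0.39. Among chaperones the differences were -1.26 for Hyou1, -0.85 for Manf (adjusted p = 0.0183), -0.84 for Creld2 (0.0167), -0.81 for Pdia6 (0.0305) and -0.74 for Pdia3 (0.0465). Among ATF4 targets they were -1.21 for Shmt2, -0.98 for Phgdh (0.0171) and -0.83 for Asns (0.0482). Among sensors and transcription factors they were -0.82 for Xbp1 (0.0329) and 1.81 for Eif2ak3. The second Pdia6 probe gave -0.24 and did not pass. Creld2 changed by -0.53 in RAW264.7 and by 0.31 in CT-26 cells, Phgdh by -0.60 and 0.37, Asns by -0.46 and 0.37, Xbp1 by -0.48 and 0.33, and Pdia3 by -0.51 and 0.22, and none of these single changes passed the test on its own. Of the 12 fits that each leave out 1 array, Asns lost its call in 10, Pdia3 in 9, Pdia6 in 7, Xbp1 in 6 and Manf in 1 (without control-primed CT-26 array 3, adjusted p = 0.0518), and the other 5 in none.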

How the results depend on the processing

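Of all genes tested in RAW264.7 cells, 5801 were called, and 3834 with median centring, 2643 with no filter on dim probes, 1166 with slide as a block, 1867 within slide 2 and 1692 to 7387 with 1 array left out. The split of 2021 higher and 3780 lower became 2398 and 1436 with median centring, 2157 and 2005 with quantile normalization and 1725 and 5638 with normexp. Of the 6 members called, the count was 2 with median centring (Dnajb9 and Hyou1), 3 with quantile normalization (Dnajb9, Hyou1 and Pdia6), 2 with no filter, 1 with slide as a block (Hyou1), 2 within slide 2 (Hyou1 and Pdia6) and 1 to 5 with 1 array left out. In CT-26 cells the 1591 genes called became 41 with no filter, 2504 with every probe on its own and 94 to 3001 with 1 array left out, and the 788 higher and 803 lower became 1123 and 671 with median centring and 1192 and 653 with normexp. The 1 member called became 2 with quantile normalization (Eif2ak3 and Hsp90b1), 0 with no filter (limma, 3 higher and 2 lower at an unadjusted p under 0.05; Eif2ak3 at 0.0878) and 0 to 2 with 1 array left out. For the interaction the 8494 genes became 2385 with slide as a covariate and 5097 to 10175 with 1 array left out, and the split of 2013 positive and 6481 negative became 2365 and 4503 with median centring and 2730 and 4056 with quantile normalization. Its 10 members became 6 with median centring, 2 with quantile normalization (Hyou1 and Eif2ak3), 1 with the slide covariate and 5 to 10 with 1 array left out. Between the cell lines 14276 to 17673 genes and 18 to 24 members were called with 1 array left out, against 17291 and 24 with all arrays. Under quantile normalization 7 members turned direction there: Atf4 (-0.37), Hsp90b1 (-0.53), Hspa5 (-0.54), Mthfd2 (-0.24), Pdia4 (-0.13), Psat1 (-0.35) and Selenok (-0.044). The causes were not tested. With normexp Slc7a11 changed by 1.98 in RAW264.7 cells, less than its bound. For the deposited value table the linear CT-26 columns were put on the log2 scale and every column was centred on its 75th percentile.

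Samples with the same replicate number did not deviate together within a cell line (correlations of -0.02 to 0.04 in RAW264.7 and -0.21 to -0.05 in CT-26 cells). Samples with unlike numbers gave -0.08 to 0.07 in RAW264.7 and -0.07 to 0.19 in CT-26 cells. Pairing between a CT-26 sample and the RAW264.7 sample that primed it was not checked. The CT-26 numbers are also in doubt, as 5 deposited columns matched another replicate, so a pairing is not excluded. A fit with the replicate block called 4811 genes and 3 members in RAW264.7 cells, 902 genes and 1 member in CT-26 cells, 7449 genes and 8 members for the interaction, and 15838 genes and 19 members between the cell lines.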

Other observations

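Genes outside the member list also separated the cell lines, in control RAW264.7 minus control-primed CT-26 cells. Of 24 further ATF4 targets tested 12 were higher and 6 lower in RAW264.7 cells (10 and 9 under quantile normalization), against 42.2% and 25.3% of all genes. Atf3, a stress transcription factor gene, had log2 levels of 2.81, 2.78 and 3.15 in control RAW264.7 cells, against -6.15, -5.43 and -6.01 in control-primed CT-26 cells. Cth differed by 6.93, Stc2 by 5.86 and Cbs by 4.66 on the log2 scale. Slc7a11 was at least 3.18-fold lower in control RAW264.7 cells, where no array was well above background. Its levels of -3.25, -2.77 and -2.52 in knockdown RAW264.7 cells stood near those of -3.36, -4.28 and -3.70 in control-primed CT-26 cells. Of 29 further ER genes 10 were higher and 9 lower (5 and 15 under quantile normalization), with the disulfide isomerase gene Pdia5 higher by 2.95, Edem3, a mannosidase gene of ER-associated degradation, lower at -2.52, and Erlec1, an ER lectin gene, at least 18.6-fold lower. Eif2ak2, the gene of the kinase PKR, differed by -3.51 and Eif2b5, a subunit of the eIF2 exchange factor, by 1.78. Of 13 tRNA charging and export genes (aminoacyl-tRNA synthetases and Xpot) 5 were higher and 1 lower (2 and 4 under quantile normalization), led by Yars at 1.71.

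In the interaction the further ER genes split into both directions, with 3 positive and 7 negative of 29, against 7.44% and 23.9% of all genes, and with 1 positive and 2 negative when slide was a covariate. Ero1a (1.73, adjusted p = 0.00128) and Hspa13 (1.90, 0.00613) were positive, and Txndc5 (-1.07, 0.00609) and Ppib (-1.40, 0.0126) were negative. With the slide covariate the adjusted p was 0.0574 for Hspa13 and 0.0996 for Ppib.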
